A study of Mus musculus with 2 samples.

Results

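The genes described here are 10 members of the fibroblast growth factor (FGF) system: the ligand genes Fgf2, Fgf5, Fgf7, Fgf10 and Fgf15, the receptor genes Fgfr1, Fgfr2, Fgfr3 and Fgfr4, and the feedback inhibitor gene Spry4. Members were taken as every probe set assigned to exactly 1 of these symbols, which gave 24 of 45101 probe sets and 10 of the 18194 genes with a probe set of their own. The RNA came from 1 mouse embryonic stem (ES) cell line, ESSP9, of genotype Del1.3MbWBS, which carries a 1.3 Mb deletion of the region lost in Williams-Beuren syndrome, a human developmental disorder. The line was measured on 2 Affymetrix arrays, labelled biological replicates 1 and 2, and both carry the deletion. The cells grew with leukaemia inhibitory factor and 20% serum replacement on a layer of feeder cells. The labels do not say whether the arrays came from separate cultures, so the SD given below may measure technical spread alone. They also do not say whether the line is a clone or how many copies of the segment were deleted. No line without the deletion was analysed here, so an effect of the deletion can be neither shown nor excluded.

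FGFs are secreted proteins that bind receptor tyrosine kinases on the cell surface, with heparan sulfate chains as a required partner. The activated receptor recruits adaptor proteins, which switch on the RAS, RAF, MEK and ERK cascade, and ERK in turn raises the transcription of ETS factors and of inhibitors such as the Sprouty proteins. In mouse ES cells the pathway is known for moving cells out of the naive state toward differentiation, with Fgf4 as the main ligand that the cells make themselves.

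The values are log2 expression values after robust multi-array average (RMA) processing by the authors, 1 per probe set and array. A gene was read from its probe set with the highest mean over both arrays. A background limit was taken from 39 olfactory receptor genes, which serve smell and have no known role in ES cells, as their 95th percentile. A gene counted as above it when both arrays and their mean exceeded the percentile of that array or mean. This limit was 5.59 for the mean, 5.60 on replicate 1 and 5.58 on replicate 2. Levels of different genes were not ranked against each other, because probes bind with different strength. Errors are SD over the 2 arrays.

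Of the 10 members, 8 were above the limit, as were 68.4% of all 18194 genes, so the count lies near the background. Counted by probe set, 14 of 24 (58.3%) were above it, against 61.8% of all 34958 probe sets with 1 symbol. The members split into a group far above the limit on at least 1 probe set (Fgf7, Fgfr1 and Spry4), a middle group (Fgfr2 and Fgfr3), and a group near or below it (Fgf2, Fgf5, Fgf10, Fgf15 and Fgfr4). The median of the members was 6.16, against 7.19 over all genes. Of the 14 member probe sets that are not marked as shared between transcripts or genes, 9 were above the limit (64.3%), against 57.7% of all such probe sets.

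The count moved with the rule, and mostly through the genes near the limit. With vomeronasal and taste receptor genes as the reference, 5 of 10 members were above it, against 61.5% of all genes. With the median over a gene's probe sets, 7 were, against 66.9%, and with unshared probe sets 7 of 9 were, against 69.4%. In the last of these Fgf5 was gained, Fgfr2 and Fgfr4 were lost, and Fgf2 had no probe set. On replicate 1 alone 8 were and on replicate 2 alone 9 were, against 69.3% on each.

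**Figure D1:**
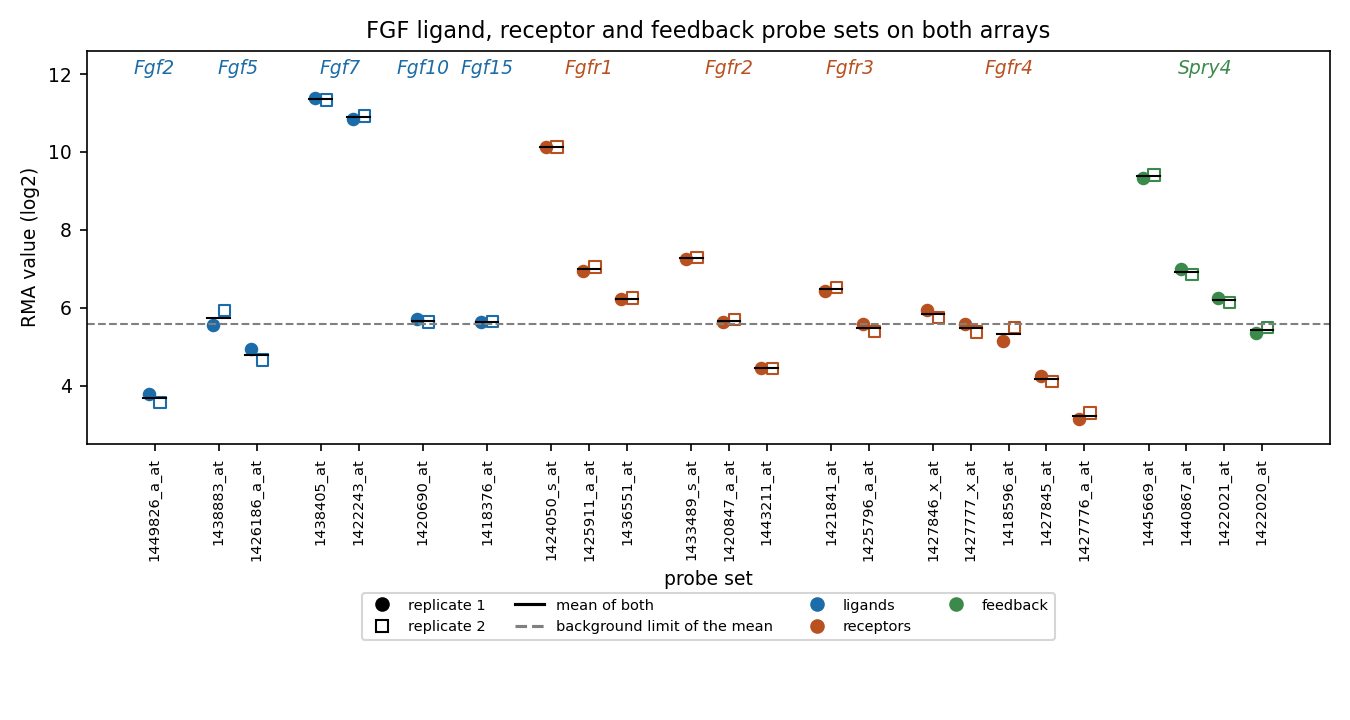
RMA log2 value (y axis) of each of the 24 member probe sets (x axis), with filled circles for replicate 1, open squares for replicate 2, a bar for their mean and a dashed line at the background limit of 5.59. Both Fgf7 probe sets lie above 10.8 on both arrays, whereas the probe sets of Fgfr1 and Spry4 spread from near the limit to above 9.

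Among the ligands, Fgf7 was the 1 member whose probe sets all lay far above the limit. Fgf7, also called keratinocyte growth factor, is made by mesenchymal cells and acts on epithelia through a splice form of Fgfr2. Probe set 1438405_at read 11.38 on replicate 1 and 11.33 on replicate 2, and 1422243_at read 10.85 and 10.92. The replicates nearly coincided on both, and the higher array was not the same one. The gene's level was 11.36 ± 0.030 (SD, n = 2), which is 5.77 log2 units above the limit. Its 2 probe sets differed by 0.47 log2 units in mean, and 79.9% of the 4694 genes with as many probe sets had a range at least as wide.

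Fgf10, a close relative of Fgf7 that signals from mesenchyme to epithelium in limb and lung, has 1 probe set. It read 5.70 on replicate 1 and 5.63 on replicate 2, 0.074 log2 units above the limit in mean. Fgf15, which in the intestine controls bile acid synthesis in the liver, read 5.64 on both arrays, 0.051 log2 units above it. Each of the 2 genes passed the limit on both arrays by less than 0.1 log2 units, and 1 of the 39 olfactory receptor genes had a higher mean in each case. At the 99th percentile of the same olfactory receptor genes neither was above, which left 6 of 10 members against 67.1% of all genes. Genes with a single probe set were above the limit in 53.4% of 9182 cases.

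Fgf5, a marker of the primed epiblast that forms after implantation, was split by array. Probe set 1438883_at read 5.55 on replicate 1, under the limit for that array, and 5.93 on replicate 2, over it. The mean was 5.74 ± 0.27 (SD, n = 2), and none of the 39 olfactory receptor genes had a higher one. The second probe set, 1426186_a_at, read 4.93 and 4.65 and was under the limit on both. The 2 probe sets moved in opposite directions between the arrays, by 0.38 and -0.28 log2 units. Fgf5 was called above the limit on replicate 2 alone, and also with unshared probe sets, whose limits were lower, at 5.32 on replicate 1 and 5.25 on replicate 2. Of other genes of the primed epiblast, 4 of 4 were above the limit, against 68.4% of all genes. Otx2 was at 6.84 ± 0.12, Pou3f1 at 7.98 ± 0.069 and Dnmt3b at 11.04 ± 0.034. These 4 markers ranged from 6.84 to 11.04, and their part in the Fgf5 value was not tested.

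Fgf2, basic FGF, a ligand without a secretion signal that supports primed pluripotent cells in culture, was under the limit on both arrays. Its probe set 1449826_a_at read 3.77 on replicate 1 and 3.57 on replicate 2, a mean of 3.67 ± 0.14 (SD, n = 2) with a distance of -1.92 log2 units to the limit. Of the 39 olfactory receptor genes, 35 had a higher mean. A probe set below the limit does not show that the transcript was absent, and the suffix of this one marks probes shared between transcripts.

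The RNA in which Fgf7 was measured held markers of ES cells and of fibroblasts. All 10 fibroblast markers were above the limit, ranging from 10.78 to 14.87, among them the collagen genes Col1a1 (12.67 ± 0.021), Col1a2 (14.87 ± 0.0061) and Col3a1 (14.86 ± 0.0025). All 10 ES cell markers were above it too, ranging from 9.76 to 14.09, with Pou5f1 at 12.63 ± 0.020, Nanog at 12.11 ± 0.063 and Sox2 at 12.11 ± 0.047. On its brightest probe set, no marker of either list was near background. With the median over a gene's probe sets, 9 of 10 ES cell markers and 10 of 10 fibroblast markers were above the limit. Fibroblasts are the usual cell of feeder layers. Which cells the transcripts of Fgf7 and of the other members came from was not tested. In a bulk culture, fewer cells of a type and less RNA per cell cannot be told apart.

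All 4 receptor genes were above the limit on their highest probe set, but on all of their probe sets only Fgfr1 was. Among all genes 68.4% were above it, with 77.6% of those with 2 probe sets, 87.4% with 3 and 95.3% with 5 or more, so the count is near that of any such genes. Fgfr1 is the receptor through which ES cells are known to read most of their FGF signal. Probe set 1424050_s_at read 10.12 on replicate 1 and 10.13 on replicate 2, 1425911_a_at read 6.95 and 7.05, and 1436551_at read 6.21 and 6.25. All 3 were slightly higher on replicate 2, by 0.0098 to 0.10 log2 units. The gene's level was 10.12 ± 0.0069 (SD, n = 2). Its means spanned 3.89 log2 units from probe set to probe set, and 28.0% of the 2366 genes with 3 probe sets spanned as much. The brightest carries a suffix for probes shared between transcripts or genes; without such probe sets the level was 6.23, still above the limit.

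Fgfr2, whose splice forms separate epithelial from mesenchymal ligand choice, read 7.25 and 7.29 on 1433489_s_at. Its other probe sets were lower, at 5.63 and 5.69 on 1420847_a_at, just past the limit, and at 4.44 on both arrays on 1443211_at. The level of 7.27 ± 0.032 (SD, n = 2) thus rests on a shared probe set, and the 1 unshared probe set lay at a distance of -1.15 log2 units to the limit. Of 6 epithelial markers, all were above the limit, from 5.81 to 10.36, against 68.4% of all genes. Cdh1 was at 10.34 ± 0.037, Epcam at 10.36 ± 0.044 and Krt8 at 7.07 ± 0.079. Lower were Krt18 at 6.78 ± 0.016, Esrp2 at 6.56 ± 0.10 and Esrp1 at 5.81 ± 0.062. With vomeronasal and taste receptor genes as the reference, 5 of the 6 were above, against 61.5% of all genes, and Esrp1 was not. Cdh1 and Epcam are also known from ES cells, and the part of these markers in the Fgfr2 value was not tested.

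Fgfr3, a receptor best known as a brake on bone growth, read 6.42 on replicate 1 and 6.53 on replicate 2 on the unshared probe set 1421841_at, a level of 6.48 ± 0.071 (SD, n = 2). On 1425796_a_at it read 5.57 and 5.39, under the limit on both arrays. The calls for its probe sets were mixed, as they were for 31.1% of the 4694 genes with 2 probe sets.

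Fgfr4, the receptor that takes up the Fgf15 signal in liver, has 5 probe sets and only 1 of them was above the limit. That one, 1427846_x_at, read 5.94 on replicate 1 and 5.75 on replicate 2, and its suffix marks probes that may bind other genes. The unshared 1418596_at read 5.15 and 5.50, under the limit on both. The other 3 had means from 3.22 to 5.48. Of genes with 5 or more probe sets, 95.3% were above the limit on the highest, and Fgfr4 passed by 0.26 log2 units. It was no longer called above the limit with the median of its probe sets, with unshared probe sets alone, or with vomeronasal and taste receptor genes as the reference. With unshared probe sets it read 5.15 on replicate 1, under the 5.32 of that setting, and 5.50 on replicate 2, over its 5.25. The primitive endoderm, whose formation depends on FGF receptors in the embryo, was represented by 6 markers. Of these 5 were above the limit, against 68.4% of all genes. Gata6 was at 7.72 ± 0.013, Sox17 at 5.81 ± 0.043, Sox7 at 5.90 ± 0.22 and Foxa2 at 5.72 ± 0.029. The highest was Pdgfra at 8.98 ± 0.046, and Gata4 (5.45 ± 0.050) was not above the limit. With vomeronasal and taste receptor genes as the reference, 2 of the 6 were above, against 61.5% of all genes. Sox17, Sox7 and Foxa2 were then not above. Which cells the transcripts of these markers came from was not tested.

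Spry4, a Sprouty protein that is induced by ERK and dampens RAS activation, was above the limit on 3 of 4 probe sets. It read 9.33 on replicate 1 and 9.41 on replicate 2 on 1445669_at, 6.99 and 6.85 on 1440867_at, 6.25 and 6.13 on 1422021_at, and 5.35 and 5.48 on 1422020_at. None of the 4 carries a suffix for shared probes, all were designed on expressed sequence tags, and 2 of them were higher on each array. The level was 9.37 ± 0.060 (SD, n = 2), and the median of all 4 was 6.56, also above the limit. The means spanned 3.95 log2 units. That is not unusual on these arrays: 40.9% of the 1093 genes with 4 probe sets had a range at least as wide.

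The replicates differed little in the members. None of the 10 differed by 1 log2 unit or by 1.5-fold, against 0% and 0.0783% of the 12769 genes above the limit on at least 1 array. By gene, the difference (replicate 2 minus replicate 1) ran from -0.20 in Fgf2 to 0.38 in Fgf5, with a median of 0.0077 against 0.0093 over all genes, and 6 of 10 were higher on replicate 2. Fgf5 stood farthest from 0: of the 500 genes closest to it in level, 3.8% differed by as much. For Fgf7 that share was 44.4%, for Fgfr1 88% and for Spry4 25.4%. No test of a condition can be made from 2 arrays of 1 group.

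**Figure D2:**
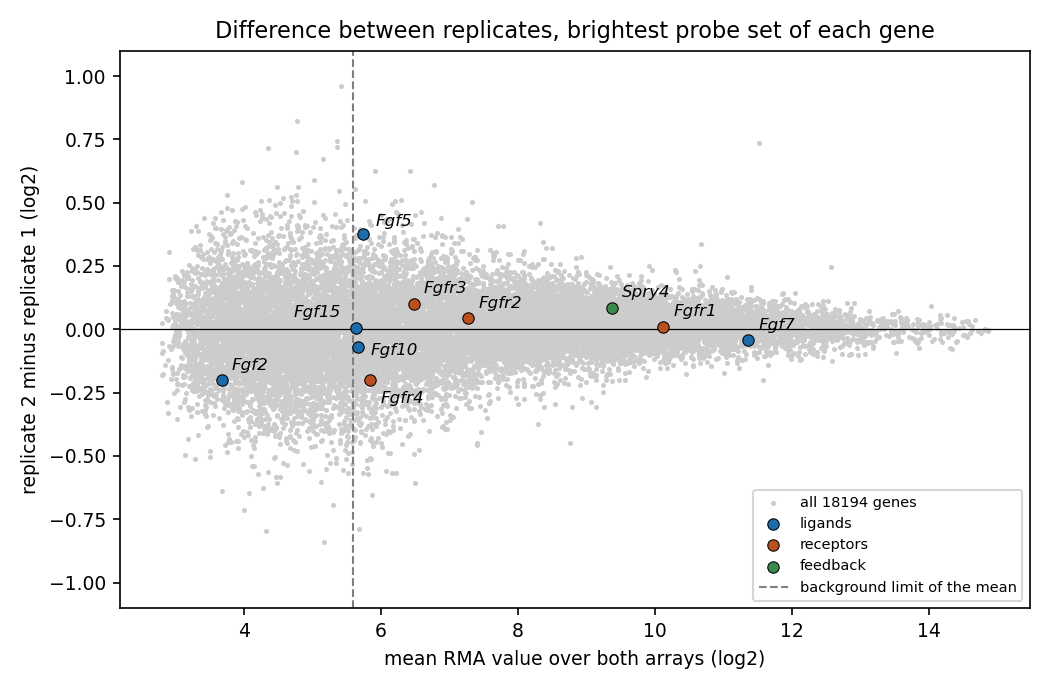
Difference between the arrays (y axis, replicate 2 minus replicate 1, log2) against the mean over both (x axis, log2) for the brightest probe set of each of 18194 genes (grey), with the members coloured by role and a dashed line at the limit. Fgf5 lies at 0.38 near the edge of the cloud, and Fgfr1 and Fgf7 lie within 0.05 of 0 at means above 10.

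The rest of the pathway was read from 7 lists of 88 genes, of which 80 had a probe set of their own. The RNA was the same, with markers of ES cells and of fibroblasts, and which cells these transcripts came from was not tested. Of the 80 genes, 65 were above the limit, against 68.4% of all genes. That share rose with the number of probe sets, from 53.4% of genes with 1 to 95.3% with 5 or more. The lists were not matched to all genes by number of probe sets, so a share over 68.4% does not show enrichment. The same holds for the marker lists. Of the other Fgf genes, listed here as other ligands although Fgf13 among them is not secreted, 5 of 17 were above the limit, against 68.4% of all genes. That count was 9 of 16 with unshared probe sets, against 69.4%, and 3 of 17 with vomeronasal and taste receptor genes as the reference, against 61.5%. Fgf4, the ligand made by the inner cell mass and ES cells, was at 9.38 ± 0.098, with 3 of its 4 probe sets above the limit. That level was read on a probe set whose suffix, _x_at, marks probes that may bind other genes. Fgf9 was at 6.02 ± 0.019 and Fgf13, an intracellular relative that is not secreted, at 6.90 ± 0.067. Fgf1 (5.31 ± 0.047) and Fgf3 (5.57 ± 0.046) were not above it. Over the whole family, 8 of 22 measured Fgf genes were above the limit (36.4%). The median of the 17 was 5.31.

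Between ligand and receptor, 13 of 15 co-receptors and binding proteins were above the limit, against 68.4% of all genes. They included Fgfrl1, a receptor without a kinase domain (9.09 ± 0.062), and the membrane proteins Flrt1 (6.75 ± 0.18) and Flrt2 (11.56 ± 0.025). The 2 that were not were Kl (4.18 ± 0.11) and Klb (5.50 ± 0.047), the Klotho co-receptors through which the endocrine FGFs, Fgf15 among them, bind their receptors. All 10 measured enzymes of heparan sulfate synthesis and editing were above it, with the chain polymerases Ext1 at 11.04 ± 0.055 and Ext2 at 9.50 ± 0.051 and the sulfotransferase Ndst2 at 7.50 ± 0.011. The medians of these lists were 9.06 and 9.94.

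Inside the cell, 11 of 11 measured adaptors were above the limit, against 68.4% of all genes. Among them were Frs3 (7.17 ± 0.090), which docks to the receptor, Grb2 (9.38 ± 0.069) and the RAS activator Sos1 (8.90 ± 0.088). Above the limit too were 8 of 8 measured genes of the RAS, RAF and ERK cascade. Nras was at 10.32 ± 0.0079, Araf at 9.02 ± 0.083 and Braf at 8.97 ± 0.013. The medians of these lists were 9.38 and 9.62. Neither list was matched by number of probe sets, and of all genes with 3 probe sets 87.4% were above the limit.

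Beside Spry4, 10 of 11 other feedback inhibitors were above the limit, including Spry1 (8.29 ± 0.056), Spry2 (9.78 ± 0.0043) and the RAF inhibitor Spred1 (10.36 ± 0.044). Spry3 was the 1 that was not, at 4.34 ± 0.017. Of genes that ERK induces, 8 of 8 were above the limit, against 68.4% of all genes. The ETS factors Etv4 and Etv5 were at 8.70 ± 0.014 and 11.15 ± 0.055, and the early response factor Egr1 at 11.56 ± 0.023. The medians were 8.91 and 11.16. Median differences between the arrays over the 7 lists lay between -0.066 (other ligands) and 0.027 (ERK targets).

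**Figure D3:**
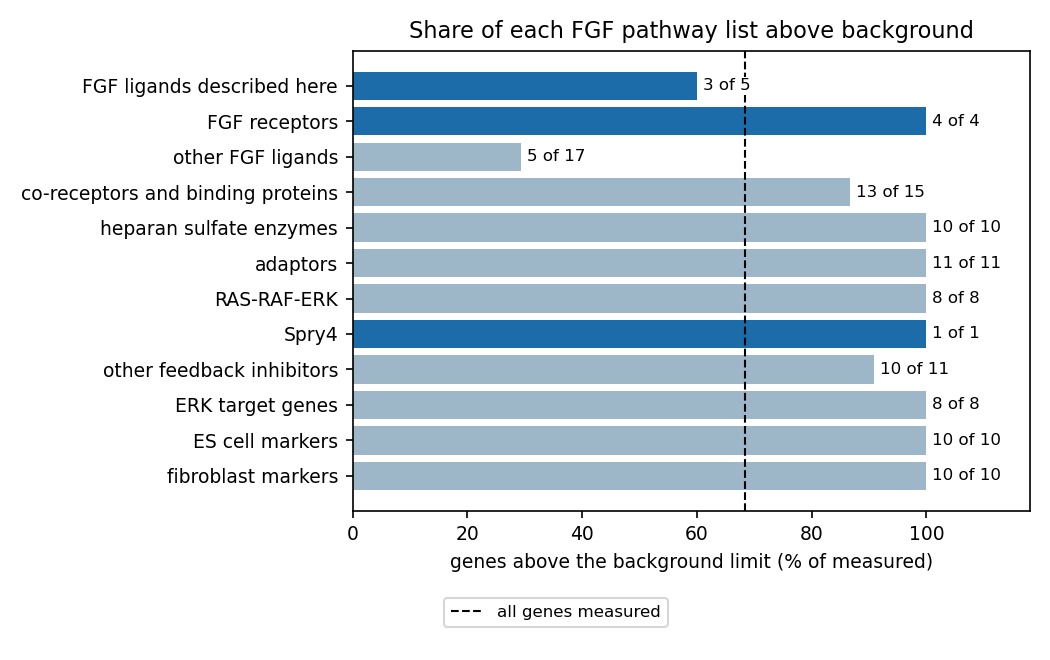
Percentage of the measured genes of each list that were above the background limit (bars from 0, with counts), for the members (dark) and the other FGF pathway and marker lists (light); the dashed line is the share of all genes, 68.4%. Both ligand lists lie below the line (3 of 5 and 5 of 17), and every other list lies above it. The line is not matched to the lists by number of probe sets per gene.

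Promoter sequence was described as a feature that the choice of members did not use. RefSeq windows (GRCm38.p6) were matched for 7 of the 10 members, 8 windows in all, and the 250 bases before each start site were used. None was matched for Fgf15, Fgfr1 or Spry4, so of the members far above the limit only Fgf7 is covered. Fgfr3 contributed a second window. The windows below are of Fgf7, the ligand far above the limit, Fgf2, a ligand under it on both arrays, and Fgfr2, the member with the fewest CpG dinucleotides. They are written 5′ to 3′ on the strand of the gene, and capitals mark GGGCGG (the GC box core), the CCAAT box core or the reverse complement of either.
Fgf7, chr2:126034408-126034657, plus strand: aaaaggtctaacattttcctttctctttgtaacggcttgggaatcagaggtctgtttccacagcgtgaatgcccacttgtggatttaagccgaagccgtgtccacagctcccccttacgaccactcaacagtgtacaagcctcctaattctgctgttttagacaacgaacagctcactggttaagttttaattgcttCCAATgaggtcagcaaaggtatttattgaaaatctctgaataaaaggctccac
Fgf2, chr3:37348403-37348652, plus strand: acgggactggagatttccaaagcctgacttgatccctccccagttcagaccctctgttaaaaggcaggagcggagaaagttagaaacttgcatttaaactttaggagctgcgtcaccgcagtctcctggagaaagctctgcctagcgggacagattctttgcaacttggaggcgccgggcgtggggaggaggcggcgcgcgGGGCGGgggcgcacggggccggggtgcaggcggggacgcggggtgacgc
Fgfr2, chr7:130266809-130267058, minus strand: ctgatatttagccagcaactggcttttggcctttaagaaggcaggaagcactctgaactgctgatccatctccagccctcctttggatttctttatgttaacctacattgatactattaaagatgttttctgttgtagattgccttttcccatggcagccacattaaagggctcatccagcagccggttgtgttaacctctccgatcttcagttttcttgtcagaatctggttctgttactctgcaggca

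The Fgf2 window had a GC content of 62.4% and 20 CpG dinucleotides, a ratio of observed to expected CpG of 0.86. The Fgf7 window had 43.6% and 6, a ratio of 0.51, and the Fgfr2 window 44% and 2, a ratio of 0.17. The other windows lay between 0.40 (Fgf10) and 0.77 (Fgf5), and the median of all 32851 windows was 0.37. Across the 14453 measured genes with a window, 88.7% of those with a ratio over 0.8 were above the background limit and 36.2% of those under 0.4. Fgf2 was thus not above the limit although its window was of the class most often above it, and Fgfr2 was above it with a window of the class least often so. Both calls rest on probe sets with a suffix for shared probes. Without such probe sets Fgfr2 was not above the limit, and Fgf2 had no probe set. Genes are not independent replicates, and this is a description.

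GGGCGG, the core of the GC box, occurred on either strand in 6 of 8 member windows and in 32.7% of all windows. CCAAT occurred in 2 of 8, in Fgf7 from -53 to -49 relative to the start and in 1 window of Fgfr3, against 33.8% of all windows. TATAAA occurred in 0 of 8, against 12.4%. The 2 GGGCGG copies in the second Fgfr3 window overlapped by 1 base, and no match overlapped one of another motif.

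**Figure D4:**
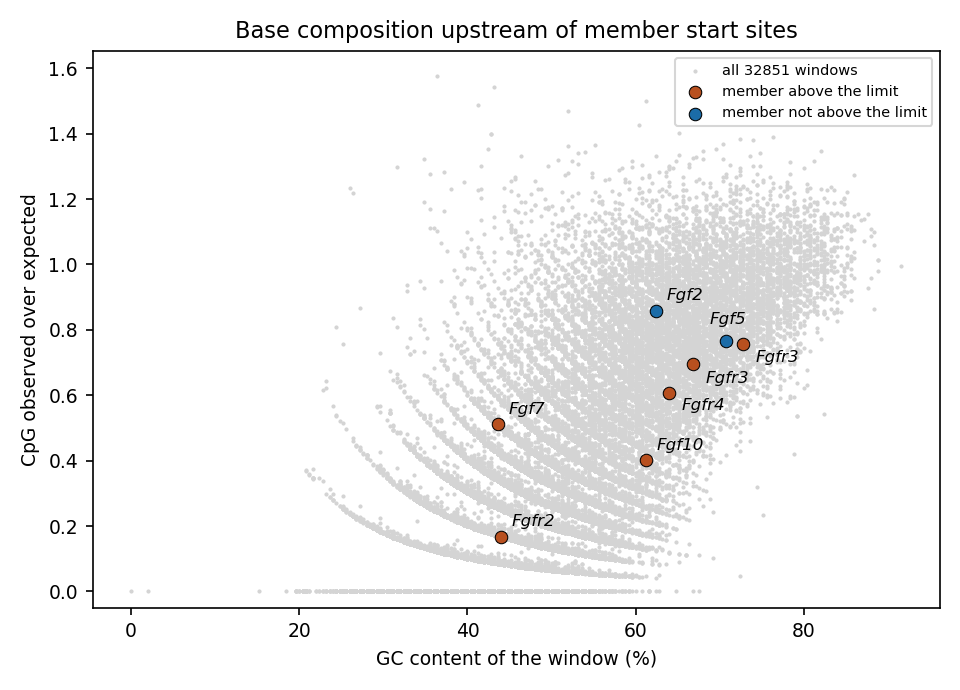
Observed over expected CpG ratio (y axis) against GC content in percent (x axis) for the 250 bases before each RefSeq start site, with all 32851 windows in grey and the 8 member windows coloured by whether the gene was above the background limit. Fgf2 (62.4% GC, ratio 0.86) was not above it, and Fgfr2 (44% GC, ratio 0.17) was, both read on probe sets with a suffix for shared probes.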

How the data were processed

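Total RNA (6 µg) was extracted with Trizol and biotin-labelled, per the labels' protocols. The deposited values are log2 expression values made by the authors with RMA, per the submitters' processing notes; its version is not given in the sources used here, nor is the set of arrays it was run on. RMA quantile-normalizes arrays, so a shift common to most genes would not show, and it gives no detection call. The number of arrays limits the precision.

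Probe sets were named through the platform annotation: 34958 had 1 symbol, 932 several and 9211 none here. By gene identifier, 34754 matched the RefSeq gene table, and 0 of the member probe sets changed name. Columns that were not used numbered 0. The 2 arrays correlated at 0.998 (Pearson's r across 12769 genes, which are not independent) and were identical at 47 probe sets. The members and lists were chosen with earlier results of these data known. The text names every member, and of each other list the first 3 genes above the limit and the first 2 that were not, in list order. Of the primitive endoderm and epithelial lists it names every gene. Genes of similar pattern were not sought with 2 arrays.

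Alternatives were the 99th percentile, 37 vomeronasal and taste receptor genes as reference, the median of a gene's probe sets, unshared probe sets (without _a_at, _s_at and _x_at), centring, loess (fraction 0.3), 1.5-fold and each array alone. Python 3.11.15 with pandas 2.3.3 and statsmodels 0.14.6 was used. Protein sequences were not analysed here.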

Additional observations from a re-analysis of the deposited data

How the results depend on the processing

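The count of 8 of 10 members above the limit was 6 at the 99th percentile, 7 with the median over a gene's probe sets, 7 of 9 with unshared probe sets, 8 with centred arrays and 8 to 9 with 1 array alone. It became 5 with the vomeronasal and taste receptor genes, whose limit was 6.08, against 61.5% of all genes; the 5 were Fgf7, Fgfr1, Fgfr2, Fgfr3 and Spry4. Fgf7, Fgfr1, Fgfr3 and Spry4 were above in 8 of 8 settings and Fgfr2 in 7. Under the same reference the other ligands fell from 5 to 3 and primitive endoderm from 5 to 2. With unshared probe sets, whose limit was 5.28, the other ligands were 9 of 16, and primed epiblast was 2 of 2, since its other 2 genes have shared probe sets only. The other ligands were 5 to 7 with 1 array alone. The median level of the members, 6.16, was 5.66 with that median, 5.74 with unshared probe sets, and 6.18 to 6.23 with 1 array alone. No member reached 1 log2 unit between the arrays after centring, after loess, with the median of probe sets or with unshared probe sets, or 1.5-fold in the deposited values. The largest difference was 0.38 as deposited, 0.39 after loess and 0.23 with the median of probe sets. As deposited, 0 of all 18194 genes reached 1 log2 unit, and the array medians were 6.007 and 6.005. Centring could thus hardly change a value, and these outcomes had little room to differ. Of 101 alternative values, 93 stayed within 1.5 times the reported count or within 1 SD between the arrays of the reported median. The loss of 2 of 8 members at the 99th percentile is within that tolerance. A further 54 values were the levels of single members and their largest difference between the arrays, and of these 43 stayed and 11 moved. With the median over a gene's probe sets, the level of every member with more than 1 probe set moved. Spry4 then went from 9.37 to 6.56 and Fgfr2 from 7.27 to 5.66. With unshared probe sets the levels of Fgfr1, Fgfr2 and Fgfr4 moved, Fgfr1 from 10.12 to 6.23. No paired analysis was possible because the 2 arrays are of a single group. Near the limit, weak and absent transcripts cannot be separated.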
